A study of Homo sapiens with 4 samples.

Results

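The genes for the proteins of the human cytosolic ribosome were examined in a genome-wide table from a study of the DNA mark 5-hydroxymethylcytosine (5hmC). A gene was a member if it was autosomal and protein-coding and its symbol was RPL or RPS followed by digits, with or without a final A or X, or RPLP0, RPLP1, RPLP2 or RPSA. This rule found 73 genes on 20 chromosomes, 43 for the large subunit and 30 for the small subunit. The rows examined were the 500 bp windows of hg19 with a midpoint within 3000 bp of the start site of the canonical transcript, 12 windows per gene and 876 in all. Of these, 394 were listed in the deposited table, which held 956365 windows in total, 944052 of them on autosomes.

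The table was made from 4 libraries of FADU, an epithelial cell line from a hypopharyngeal squamous cell carcinoma, with 1 library per condition. The conditions were Normoxia (scrambled control), Normoxia (TET1-si), Hypoxia (scrambled control) at 1% O2 for 18 h, and Hypoxia (TET1-si) at 1% O2 for 19 h. TET1-si denotes knockdown of TET1, an enzyme that oxidises 5-methylcytosine to 5hmC. The value columns carry names that match no sample label, so no value was used, no condition could be compared, and a window was recorded only as listed or not listed in the table that the 4 libraries share. A listed window may have had reads in any of the libraries, and a window that was not listed may have had some. The labels name the assay hMeDIP-seq, an enrichment of marked DNA before sequencing, but describe an antibody against 5-methylcytidine, whereas the methods describe chemical labelling of 5hmC, so the mark cannot be stated with certainty.

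Ribosomal proteins assemble with ribosomal RNA into the large and small subunits that translate mRNA, and their genes are among the most strongly and most widely transcribed in human cells. Most are short genes with a CpG island at the promoter, a stretch rich in CpG dinucleotides that is usually free of cytosine methylation in active genes. Their mRNAs typically begin with a cytidine followed by a run of pyrimidines, the 5′ terminal oligopyrimidine (TOP) motif, through which their translation responds to growth signals. Many of them carry small nucleolar RNAs in their introns, and they have given rise to large numbers of processed pseudogenes. TET enzymes act on methylated cytosines, and 5hmC is commonly found in the bodies of active genes and depleted at their CpG island promoters.

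The start sites of 12 members are shown first because the results turn on the window that holds the start and on the genes with most and fewest listed windows. Each line gives 20 bases before the start and 10 bases from it on GRCh37, the same assembly as hg19 for these chromosomes, read 5′ to 3′ on the strand of the gene. Capitals mark the unbroken run of C and T that begins at the start base.
RPL5, chr1:93297577-93297606, plus strand: gcctgcgcaagggctgtggcCCTTTTCCCa
RPLP1, chr15:69745137-69745166, plus strand: gctgcgtataggcgcgagagCCCCTTTCCT
RPS15A, chr16:18801647-18801676, minus strand: gtgcgctctcccctcccgtcCTCTTTCCgc
RPS15, chr19:1438375-1438404, plus strand: ataactgcgcaggcgcggacCaaagcgatc
RPLP0, chr12:120638905-120638934, minus strand: ggcacgcgcgggcgcgaggcCCTTCTCTCg
RPLP2, chr11:809947-809976, plus strand: gcctcttgcgtcggcgccttCCTTTTCCTC
RPSA, chr3:39448191-39448220, plus strand: cgtcatttcctgccgcctgtCTTTTCCgtg
RPS3, chr11:75110542-75110571, plus strand: cttccgcccgcgagccacttCCTTTCCTTT
RPL34, chr4:109541712-109541741, plus strand: ctggcaaaggcttttttcttCCTCTTCCgg
RPL37A, chr2:217363547-217363576, plus strand: cctgcgcaccgcgtctcttcCTTTCTgggc
RPL19, chr17:37356516-37356545, plus strand: gggtttgggctctccccttcgcagataatg
RPL17, chr18:47018826-47018855, minus strand: ctcttcctctttccctaagcagcctgaggt

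The first 10 lines run from genes whose start window was listed (RPL5, RPLP1, RPS15A and RPS15) to genes whose start window was not (RPLP0, RPLP2, RPSA, RPS3, RPL34 and RPL37A). A pyrimidine run opened the transcript in members of both kinds, and RPS15 had only its first base in the run. RPL19 and RPL17 had no pyrimidine at the annotated start base. Over all members, 55 of 73 starts (75.3%) were a C followed by at least 4 further pyrimidines, compared with 4.56% of all 18978 autosomal protein-coding starts, 6.41% of those of mitochondrial ribosomal proteins and 30.3% of those of EIF and EEF translation factors. The start window was listed for 4 of the 55 members with this motif and for 1 of the 18 without it. The median number of listed windows was 6 and 5 in these groups.

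The 150 bases before the start are given for 4 members with 10 (RPS15), 6 (RPL5) or 1 (RPL37A and RPL34) listed windows, with each CpG in capitals.
RPS15, chr19:1438245-1438394, plus strand: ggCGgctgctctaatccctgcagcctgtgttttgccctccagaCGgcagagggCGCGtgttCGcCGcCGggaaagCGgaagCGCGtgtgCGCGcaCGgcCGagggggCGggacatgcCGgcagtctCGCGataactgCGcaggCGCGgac
RPL5, chr1:93297447-93297596, plus strand: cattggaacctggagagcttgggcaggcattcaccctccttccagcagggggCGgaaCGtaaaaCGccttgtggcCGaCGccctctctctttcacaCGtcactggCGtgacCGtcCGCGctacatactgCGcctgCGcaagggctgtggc
RPL37A, chr2:217363417-217363566, plus strand: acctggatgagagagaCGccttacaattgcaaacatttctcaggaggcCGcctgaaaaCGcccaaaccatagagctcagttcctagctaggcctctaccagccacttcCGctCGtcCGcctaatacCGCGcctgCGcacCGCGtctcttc
RPL34, chr4:109541582-109541731, plus strand: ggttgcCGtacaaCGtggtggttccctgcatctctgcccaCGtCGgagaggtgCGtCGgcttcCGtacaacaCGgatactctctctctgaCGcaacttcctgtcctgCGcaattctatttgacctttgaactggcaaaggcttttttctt

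These stretches held 21 CpG sites in RPS15, 12 in RPL5, 11 in RPL37A and 10 in RPL34. The first pair, RPS15 and RPL5, had a listed start window and the others did not. In the 250 bases before and 50 bases after the start, on either strand, CCGGAAG, a core letter string of GABP sites, was found in 25 of 73 members (34.2%) and in 14.2% of all promoters of the same length. AAGATGGC, a string of YY1 sites, was found in 10 members (13.7%) and in 4.06% of all promoters. The closing AAG of the former string also opens the latter, so that matches can overlap. GGGCGG, the SP1 string, was found in 57.5% of members and 61.8% of all promoters, and TATAAA in 8.22% and 9.65%. These matches describe letters and do not show binding.

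Around the ribosomal protein genes as a whole, the share of windows listed was 45.0% (394 of 876, 95% Wilson interval 41.7 to 48.3). The share at all autosomal protein-coding genes was 39.3% (89488 of 227736). Mitochondrial ribosomal protein genes had 37.5% of 936 windows listed, and EIF and EEF translation factor genes had 40% of 792. Listing varied with base composition, so each window was given a predicted share, namely the listed share of all autosomal windows matching it in CpG number and GC class. The prediction for the members was 33.0%, and the ratio of the listed share to the predicted one was 1.36 (interval 1.26 to 1.46). The ratio was 1.30 over all autosomal protein-coding genes, 1.33 for the translation factor genes and 1.24 for the mitochondrial ribosomal protein genes, so that over the whole flank the members were near the general value. The overall share was the sum of very different values by position, from 2.74% in the first 500 bp downstream of the start to 82.2% between 2500 and 3000 bp downstream. With the start at the 5′ end of the gene, the former value was 8.22%. With a flank of 1500 bp the listed share was 30.1% and the ratio 0.853, below 1. The interval here and elsewhere covers the counting of windows only. Neighbouring windows are not independent, and no test was made.

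**Figure D1:**
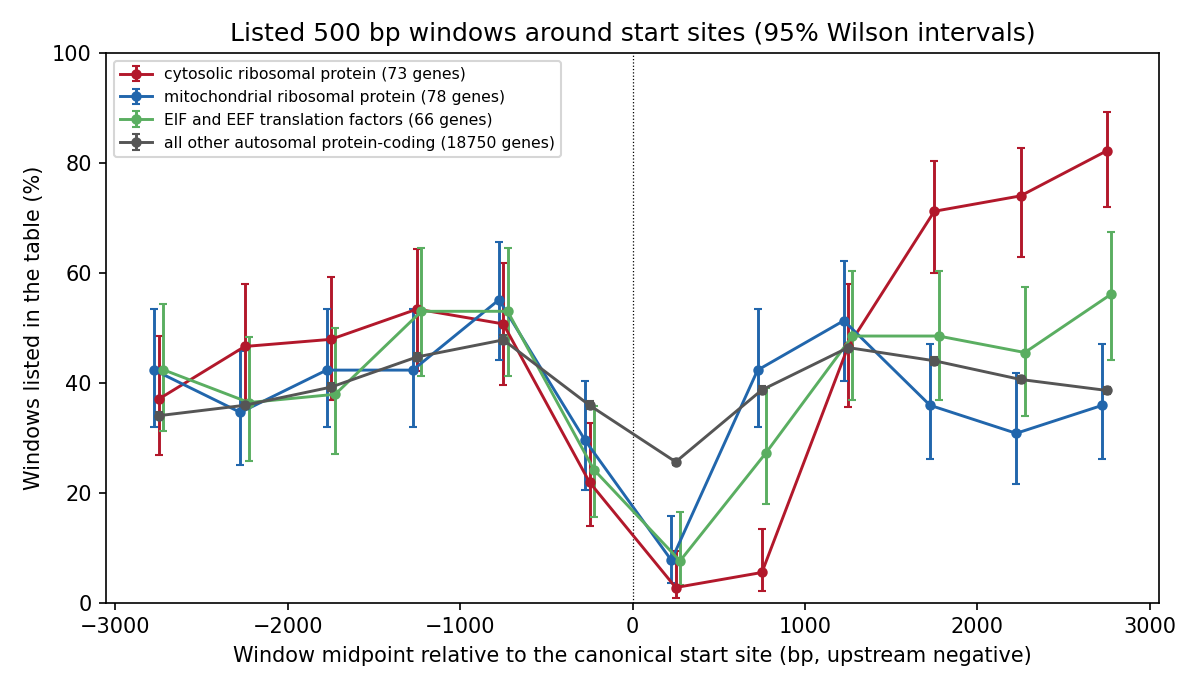
Share of 500 bp windows listed in the table (y axis, %) by distance of the window midpoint from the canonical start site (x axis, bp, upstream negative) for 4 lists of genes, with 95% Wilson intervals as bars. The cytosolic ribosomal protein genes fall to 2.74% and 5.48% in the first 1000 bp downstream of the start and reach 82.2% at 2500 to 3000 bp, where all other genes are at 38.6%.

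The window that holds the start base was listed for 5 of 73 ribosomal protein genes (6.85%, interval 2.96 to 15.1), where 27.4% of all autosomal protein-coding genes had a listed start window. The composition of these windows predicted 36.4%, and the ratio was 0.188. Mitochondrial ribosomal protein genes had 10 of 78 start windows listed (12.8%) and translation factor genes 7 of 66 (10.6%), so that the intervals of the cytosolic members and of both comparison lists overlap. With the start taken at the 5′ end of the gene over all its transcripts, the share was 13.7% for the members and 32.4% for all other genes. The 5 members with a listed start window were RPL5, RPLP1, RPS15, RPS15A and RPS20. RPL5 binds 5S ribosomal RNA, RPLP1 is part of the stalk that recruits the GTPase translation factors, and RPS15, RPS15A and RPS20 belong to the small subunit. In RPS15, RPS20 and RPS15A most of the listed window lay upstream of the start, with 394, 435 and 344 of its 500 bases before the start base. In RPL5 and RPLP1 only 96 and 156 bases lay upstream, and these were the 2 members listed in the bin from 0 to 500 bp downstream.

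The share of start windows listed was lower in the members than in all other genes in each class of CpG number. From 25 CpG sites up the comparison lists were low as well. Mitochondrial ribosomal protein genes were at 10% with 25 to 39 sites and 6.67% with 40 or more, and translation factor genes at 9.09% and 12.2%. With fewer than 25 sites, 4 of 8 mitochondrial ribosomal protein genes and 0 of 3 translation factor genes had a listed start window. Start windows of members held between 21 and 63 CpG sites with a median of 38, close to the median of 37 over all genes, where the range was 0 to 115. With 25 to 39 CpG sites, 2 of 38 member windows (5.26%, interval 1.46 to 17.3) and 26.9% of those of all other genes were listed. With 40 or more, 3 of 29 member windows (10.3%, interval 3.58 to 26.4) and 19.2% of the others were listed, and here the interval of the members holds the value of the others. None of the 6 members with fewer than 25 CpG sites had a listed start window, which allows a share of up to 39% by the same interval, beside 39.9% of other genes. Of the 73 start windows, 56 consisted wholly of 50-base sequences found once in the genome. Within these the listed share was 5.36%. It was 28% (4864 of 17363) for start windows of other genes in which 10 sampled sequences were all unique.

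**Figure D2:**
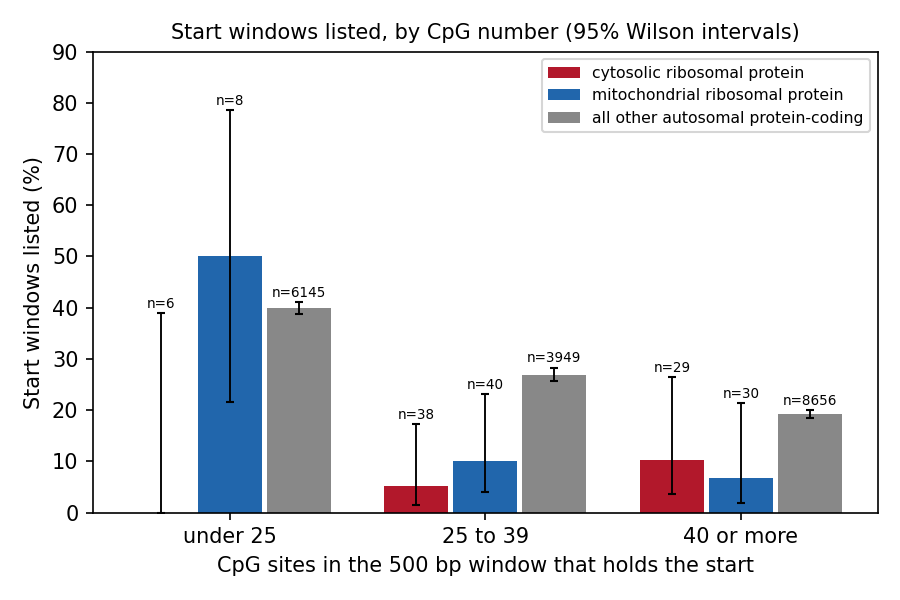
Share of start windows listed (y axis, %) by the number of CpG sites in the window (x axis, 3 classes) for cytosolic ribosomal protein, mitochondrial ribosomal protein and all other autosomal protein-coding genes; bars start at 0, error bars are 95% Wilson intervals and n is the number of genes. The cytosolic members are at 0%, 5.26% and 10.3% where all other genes are at 39.9%, 26.9% and 19.2%. The mitochondrial ribosomal protein genes are at 50%, 10% and 6.67%.

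Windows just inside the ribosomal protein genes were also seldom listed. In the first 1000 bp downstream, 6 of 146 windows were listed (4.11%, interval 1.90 to 8.68), and the share at all autosomal protein-coding genes was 32.0%. The composition of the member windows predicted 37.0%. Mitochondrial ribosomal protein genes were at 25% and translation factor genes at 17.4%. In the first 500 bp the members were at 2.74% (interval 0.755 to 9.45). The mitochondrial list was at 7.69% there (interval 3.57 to 15.8) and the translation factor list at 7.58% (interval 3.28 to 16.5). These intervals overlap, and all other genes were at 25.6%. At 500 to 1000 bp downstream the members were at 5.48% (4 of 73), the mitochondrial ribosomal protein genes at 42.3%, the translation factor genes at 27.3% and all other genes at 38.7%. No member had both windows of the first 1000 bp listed and 67 had neither. The 6 others had 1 window each. RPL5 and RPLP1 were listed in the nearer bin, and RPL19, RPL38 and RPS19 in the farther one. RPS19, a small subunit protein whose mutation causes Diamond-Blackfan anaemia, had 1 of 6 windows listed upstream and 4 of 6 downstream. RPL38 and RPS19 were named after their values were seen.

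For the 68 members whose start window was not listed, the unbroken run of unlisted windows around the start had a median length of 2000 bp, with an interquartile range of 1500 to 3000 bp. The same run had a median of 3000 bp and an interquartile range of 1500 to 10500 bp over all genes with an unlisted start window. Beside the start window itself, the median unlisted length was 500 bp upstream and 1000 bp downstream in the members, the same values as over all genes.

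Farther downstream of the start the picture was the opposite. Between 1500 and 3000 bp downstream of the start, 166 of 219 member windows were listed (75.8%, interval 69.7 to 81.0), compared with 41.2% at all autosomal protein-coding genes. The composition of the member windows predicted 29.9%, a ratio of 2.53, and the ratio over all genes was 1.50. Mitochondrial ribosomal protein genes had 34.2% of these windows listed (interval 28.4 to 40.5) and translation factor genes 50.0% (interval 43.1 to 56.9). The share of members listed rose from bin to bin, with 46.6% at 1000 to 1500 bp, 71.2% at 1500 to 2000 bp, 74.0% at 2000 to 2500 bp and 82.2% at 2500 to 3000 bp. Over all other genes it was 46.4%, 44%, 40.6% and 38.6% in the same bins. The 3000 bp limit did not mark an end, since 80.8% of the windows just outside it (3000 to 3500 bp) and 79.2% of those from 3000 to 6000 bp were listed at members, beside 37.5% and 36.3% at all genes. From 6000 to 10000 bp the members were at 65.1% (380 of 584, interval 61.1 to 68.8) and all genes at 34.3%. The canonical transcript spanned less than 6000 bp in 54 members, so their windows beyond 6000 bp lay past its end. The shares beyond 3000 bp were not set against a prediction from composition.

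Genes of both subunits had few listed windows in the first 1000 bp and many farther downstream, but they differed in between. From 1500 to 3000 bp downstream, 79.1% of large subunit windows (interval 71.3 to 85.2) and 71.1% of small subunit windows (interval 61 to 79.5) were listed. In the first 1000 bp the values were 4.65% and 3.33%. At 1000 to 1500 bp, 30.2% of large subunit genes (13 of 43, interval 18.6 to 45.1) and 70% of small subunit genes (21 of 30, interval 52.1 to 83.3) had a listed window, and these intervals do not overlap. In the last 500 bp before the start the shares were 11.6% (interval 5.07 to 24.5) and 36.7% (interval 21.9 to 54.5). The large subunit share then rose through 69.8% and 81.4% to 86% at 2500 to 3000 bp, whereas that of the small subunit was 73.3%, 63.3% and 76.7% in the same bins. The difference between the subunits was noticed among 12 bins and was not tested. The median number of listed windows was 5 per large subunit gene and 6.5 per small subunit gene, and the shares of all windows were 42.4% and 48.6%. Of the 73 members, 42 had all 3 windows from 1500 to 3000 bp listed, 14 had 2, 12 had 1 and 5 had none. Among those with none were RPL17, RPL23, RPL37A and RPS13. RPL23 had 5 listed windows and RPS13 had 4 on the upstream side. The full pattern, with neither window of the first 1000 bp listed and all 3 windows from 1500 to 3000 bp listed, was found in 39 members (53.4%), where it was found in 8.73% of all autosomal protein-coding genes. This pattern was not planned and follows the members' own profile by bin. The count therefore restates that profile gene by gene and is no separate support for it.

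The genes are short, and the downstream windows therefore cover several exons, introns and sometimes the sequence beyond the gene. The median span of the canonical transcript was 4437 bp in the members and 23265 bp over all genes, and 54 members spanned less than 6000 bp. The 3437 other genes with a span under 6000 bp had 41.9% of windows listed from 1500 to 3000 bp downstream and 38.8% in the first 1000 bp. In the members, windows of the gene body with no exonic base were listed in 83 of 162 cases (51.2%, interval 43.6 to 58.8). Those with 100 or more exonic bases were listed in 70 of 142 cases (49.3%, interval 41.2 to 57.4) and those with fewer exonic bases in 30 of 72 (41.7%, interval 31 to 53.2), so that the intervals of exonic and intronic windows overlap. Of the 25 windows past the end of the transcript, 21 were listed (84%, interval 65.3 to 93.6). These all lay more than 1000 bp downstream, and 75.8% of all member windows from 1500 to 3000 bp were listed. The gene body classes include windows of the first 1000 bp, where 4.11% were listed. The classes were not matched for position, so their shares cannot be compared with that past the transcript. The 27 members that host a small nucleolar or small Cajal body RNA, 58 such RNA genes in all, had a median of 5 listed windows, and the other 46 had a median of 5.5. Both groups had a median of 3 listed windows downstream.

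Upstream of the start the values of the members were nearer to those of other genes. At least 1 of the 6 upstream windows was listed in 64 of 73 members (87.7%), where this was so for 76.6% of all autosomal protein-coding genes. Mitochondrial ribosomal protein genes were at 85.9% and translation factor genes at 84.8%, close to the members. The share of windows listed was 52.1% (76 of 146, interval 44 to 60) between 1500 and 500 bp upstream, beside 46.3% at all genes, and 21.9% in the last 500 bp before the start, beside 35.9% at all other genes. Between 1500 and 500 bp upstream the mitochondrial list was at 48.7% and the translation factor list at 53%. In the last 500 bp these lists were at 29.5% and 24.2%. From 6000 to 3000 bp upstream 45.2% of member windows were listed (interval 40.6 to 49.9), and 31.8% of those of all genes. Another protein-coding gene started within 3000 bp in 22 members, some of them read-through annotations that share the member's own exons. These had a median of 3 listed windows upstream, and the other 51 members had a median of 2. Listed windows were more numerous downstream than upstream in 30 members, less numerous in 21 and equal in 22.

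The number of listed windows per gene ran from 0 to 10 of 12 with a median of 5, and the median over all genes was 4. There were 18 members with 8 or more, 41 with 4 to 7 and 14 with 3 or fewer. RPL19 and RPS15 had the most, with 10 each. RPL19, a large subunit protein, lies on chromosome 17 with its start at 37356536, and all its windows were listed except the most distal one upstream and the one that holds the start. RPS15, a small subunit protein near the decoding site, starts at 1438395 on chromosome 19. It had all 6 upstream windows listed, including the one that holds its start, and 4 of 6 downstream, with both unlisted windows in the first 1000 bp. RPL7A had 9 listed windows and RPL13 had 8. RPL7A hosts 4 small nucleolar RNAs, and its 3 windows that were not listed formed a single run across the start.

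The stalk proteins RPLP0, RPLP1 and RPLP2, which form the flexible arm of the large subunit, had 8, 6 and 8 listed windows. RPLP0 and RPLP2 had 4 on either side and an unlisted run of 1500 and 2000 bp around the start. RPLP1 had 3 on either side, and its run of listed windows crossed the start and was followed by 3 unlisted windows. RPSA, the small subunit protein also described as a laminin receptor, had 7 listed windows, 4 upstream and 3 downstream, around an unlisted run of 1500 bp.

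At the other end, RPL34, RPL37A, RPL7 and RPS3 had 1 listed window each, and RPL17 had none. Over all genes 13.3% had none. RPS3, which lines the mRNA entry of the small subunit, starts at 75110562 on chromosome 11 and had its only listed window at the downstream edge, next to an unlisted run of 9000 bp. RPL34, with its start at 109541732 on chromosome 4, also had only its last downstream window listed, and the unlisted run around its start was 21000 bp. RPL37A, with its start at 217363567 on chromosome 2, had a single listed window upstream. Sequence uniqueness was high in the windows of RPL34 (97.8% of 50-base sequences found once in the genome), RPL37A (99.6%), RPS3 (92.3%) and RPL7 (91.7%).

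RPL17, whose start is at 47018835 on chromosome 18, had 91.4% unique sequence and a wholly unique start window. It hosts 3 small nucleolar RNAs and its 12 unlisted windows were part of an unlisted run of 7500 bp.

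Repeated sequence was otherwise a small part of these genes despite their pseudogenes. The annotation held 1474 pseudogenes named after the 73 members, with a median of 13 per gene and a maximum of 133 for RPL21. Even so, 91.8% of the 50-base sequences in the member windows occurred once in the genome. The windows in which every sequence was unique were listed in 154 of 411 cases (37.5%, interval 32.9 to 42.2), and those with 50 to under 100% unique sequence in 240 of 452 (53.1%, interval 48.5 to 57.7). Start windows, which were rarely listed, were wholly unique in 76.7% of cases, and windows with 100 or more exonic bases in 21.1%. The methods kept reads with 1 best match in the genome, so a sequence present more than once could not be placed. None of the 13 member windows with under 50% unique sequence was listed. These windows lay in only 2 genes, most of them in 1, so they are not separate cases across the members. RPL21 with its 133 pseudogenes had 4 listed windows, all 3 from 1500 to 3000 bp downstream among them.

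The surroundings of the genes varied as well. For each member the listed share of windows within 1 Mb on either side, without the nearest 10 kb, was divided by the share predicted from composition. This regional ratio ran from 0.384 to 2.06, the latter at RPL3. Across the 73 members it had a Spearman correlation of 0.392 and a Pearson correlation of 0.404 with the number of listed windows, and the number predicted from the composition of the gene's own windows had a Spearman correlation of 0.517. These are descriptions across genes that share one table, and neighbouring members share parts of their regions. In the 24 members with the lowest regional ratio (0.384 to 1.05) 32.6% of windows were listed, in the middle 25 (1.07 to 1.31) 49.3%, and in the 24 with the highest (1.32 to 2.06) 52.8%. All 5 listed start windows were in the middle and highest groups. RPL17 had a regional ratio of 0.42, RPL34 of 0.515, RPL37A of 0.595 and RPS3 of 0.793, all below 1, whereas RPL7 had 1.53. RPS7 had 5 listed windows in a region with a ratio of 0.39.

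**Figure D3:**
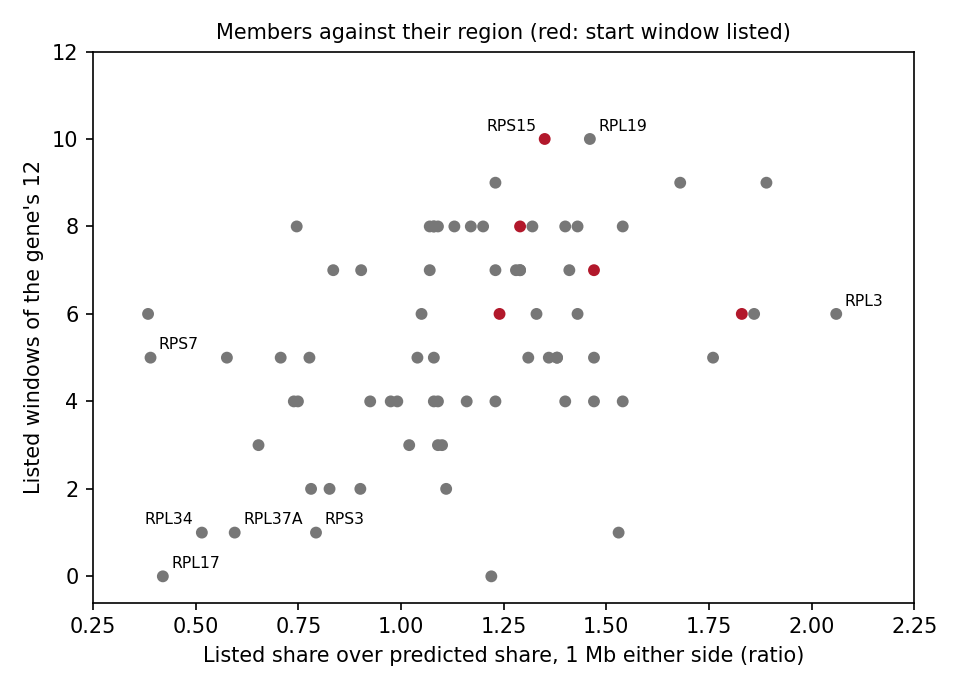
Listed windows of each ribosomal protein gene (y axis, of 12) against the ratio of listed to predicted share in the 1 Mb on either side of it (x axis), with 1 point per gene and red points for the 5 genes whose start window was listed. RPL17, RPL34 and RPL37A lie at ratios from 0.42 to 0.595 with 0 or 1 listed window, and RPS7 has 5 listed windows at a ratio of 0.39.

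The chromosomes with the lowest listing of members were 18, with RPL17 alone (0 of 12), and 4, where RPL34, RPL9 and RPS3A had 6 of 36 windows listed (16.7%). The ratio of listed to predicted share over the whole chromosome was 0.572 for chromosome 18 and 0.537 for chromosome 4, the lowest values among the 20 chromosomes with members. On chromosome 19, which carries 12 members, 77 of 144 windows were listed (53.5%) and the ratio of the chromosome was 0.948. On chromosome 17 the 6 members had 40 of 72 listed (55.6%, chromosome ratio 1.26). The part of the regional values in the counts of single genes was not tested.

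Genes that resemble the members but fall outside the rule were described for comparison. FAU, which encodes a ribosomal protein fused to a ubiquitin-like protein, and RACK1, a small subunit scaffold, had 4 and 7 listed windows, and neither had a listed start window. Of 8 paralogs of ribosomal protein genes, 2 had a listed start window (25%, interval 7.15 to 59.1), beside 27.4% of all genes. Of the paralogs' windows, 40 of 96 were listed (41.7%), beside 39.3% at all genes. Among them RPL3L, the striated muscle counterpart of RPL3, had 11 of 12 windows listed, including a start window with 12 CpG sites. RPL7L1 had 6 with a listed start window of 24 CpG sites, and RPL10L, the testis counterpart of RPL10, had none. RPL3 itself had 53 CpG sites in its start window, which was not listed, and 6 listed windows.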

How the data were processed

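The authors prepared 4 libraries from FADU cells, 1 per condition, which the methods describe as DNA enriched for 5hmC. Per the methods, 50 bp single-end reads were mapped to hg19 with Bowtie 0.12.7 (-m 1 -v 3 --best --strata) and unique, monoclonal reads were counted in windows with MEDIPS. In the deposited table the window positions, in base pairs, were used. Its 4 value columns match no sample label and were not used, so the depth of the libraries is unknown here. The rule by which the authors kept windows was not tested.

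Start sites came from GENCODE version 44 lifted to GRCh37 (18978 autosomal protein-coding genes). Each window belonged to a gene by its midpoint. The predicted share came from autosomal windows with the same CpG number (capped at 40) and GC class (steps of 25 bases). The calculation was tested on simulated tables. Uniqueness was the exact match of all 451 sequences of 50 bases per window on both strands of the genome. Wilson 95% intervals were used and no test was made. Named genes were the 6 with most and the 6 with fewest listed windows (ties by symbol), those with a listed start window, the stalk genes, RPSA, any with no listed window and the extremes of shared chromosomes. Some members are not reported singly here. Other genes were named after their values were seen. The members and lists were chosen with earlier results of these data known. Python 3.11.15, NumPy 2.4.6 and pandas 2.3.3 were used.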

Additional observations from a re-analysis of the deposited data

How the results depend on the processing

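Of 33 values recomputed under alternatives, 23 stayed within the interval of the value reported, with the same side of the prediction. These included those with the start at the 5′ end of the gene (13.7% of start windows, ratio 0.381) and with other predictions from composition. Of the 33 values, 10 were added after seeing the data, and all of these stayed. The 9 values that moved and the 1 that turned to the other side of the prediction had all been planned. The size of the flank decided the total. With 1500 bp the listed share was 30.1%, its ratio to the prediction turned to 0.853 and the median was 2 windows per gene. With 5000 bp they were 51.7%, 1.60 and 11. A larger flank gives less weight to the seldom listed windows at the start. It also adds downstream windows that were often listed, with 79.2% from 3000 to 6000 bp. With wholly unique windows alone the share was 37.5% and the ratio 1.20. With the window 250 bp downstream in place of the start window 2.74% of members were listed, beside 25.5% of other genes. With an upstream region of 1500 bp, 71.2% of members had a listed window. No paired analysis was possible because the libraries had no values assigned to them. One library per condition allows no statement about hypoxia or TET1 knockdown, and no window's depth is known.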
